A study of Sus scrofa with 12 samples.

Results

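Insulin-like growth factors (IGFs) are secreted hormones that bind the receptor tyrosine kinase IGF1R and, through insulin receptor substrate adaptors, switch on the PI3K and AKT pathway of growth and survival. Outside the cell most IGF is held by IGF binding proteins (IGFBPs), which carry it, keep it from the receptor or release it when proteases cut them. Fibroblasts and other mesenchymal cells are known as sources of IGF1 and of several IGFBPs. The 9 genes described here are the ligands IGF1 and IGF2, the receptor IGF1R, and the binding proteins IGFBP2, IGFBP3, IGFBP4, IGFBP5, IGFBP6 and IGFBP7. They were found by gene name among the 30012 loci of 1 expression table of pig cells, taking the annotated locus with the highest mean level where a name had several. All 9 were found.

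The table holds 12 RNA-seq libraries, 3 in each of 4 groups. The labels call them Somatic cell control, Parthenogenetic ESC-3, Parthenogenetic ESC-7 and IVF-derived ESC-11. The control is fetal fibroblasts, isolated at 30 days post coitum and used at passage 6. Parthenogenetic embryonic stem cell (ESC) lines, here ESC3 and ESC7, come from eggs activated without sperm, and ESC11 comes from an embryo fertilised in vitro (IVF). All 3 ESC lines grew on feeder cells with 20 ng/mL FGF2, 5 ng/mL ActA, 1.5 µM CH and 2.5 µM IWR-1, with 10 µM Y-27632 for 24 h around passaging. SSEA1-positive ESCs were separated magnetically from differentiated and feeder cells before their RNA was taken, per the labels. Each ESC group is 1 line, so a difference between embryo origins cannot be told apart from a difference between lines. Cell type, culture and sorting likewise differ together between ESCs and fibroblasts. Whether a group's 3 libraries stem from separate cultures is not stated, so the p-values reflect the spread among libraries alone, and this spread may be technical.

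Levels are the FPKM deposited by the authors (read fragments per kilobase of a transcript, relative to library size), so levels of different genes are per length, and the depth behind them is unknown. Differences are on the log2(FPKM + 1) scale, which understates the change of low genes. A gene is said to have risen or fallen at an adjusted p under 0.05 in limma (Benjamini-Hochberg over 18278 tested loci) with a log2 difference of at least 1. A library had 21898 to 24100 loci above 0, with a median of 4.59 to 5.05 FPKM. The summed FPKM of a library ran from 2375984 to 7715469, and the ESC11 libraries lay low in this range (2375984 to 3741686). Loci under 300 bp held 54.8% to 60.7% of the sum in ESC11 and 70.7% to 80.6% in the other libraries. The part of this in the comparisons with ESC11 was not tested. Differences between lines with an adjusted p under 0.05 that turned, or gained a call, when libraries were scaled on loci of 1 kb or more are named below. Marker sums followed the labels. The summed FPKM of 10 fibroblast markers was 16202 to 16379 in fibroblasts and 72.7 to 113 in ESCs, where LUM and TWIST1 were listed at 0 in all 3 ESC3 libraries. The sum of 6 pluripotency markers was 1.30 to 1.73 in fibroblasts, with EPCAM listed at 0, and 2704 to 3008 in ESCs. The sum of 7 primitive endoderm markers was 4.40 to 6.66 in ESCs and 1.90 to 2.20 in fibroblasts, with TTR listed at 0 in all 12 libraries. APOA1 held most of that sum in ESCs, with means of 3.89 in ESCs and 0.969 in fibroblasts. GATA6 was at 0.724 in ESC3, 2.57 in ESC7 and 1.05 in ESC11. Trophectoderm markers other than KRT7, which lay on a short unannotated locus, summed to 0 to 0.298 in ESCs and 1.68 to 2.18 in fibroblasts. The 3 mesendoderm markers summed to at most 0.678 in any library. The 2 neural markers summed to 40.7 to 42.1 in fibroblasts and 5.20 to 6.81 in ESCs, and the 2 endothelial and blood markers to 2.35 to 3.23 and 0.441 to 1.11.

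Compared with fibroblasts, ESCs had far less mRNA of IGFBP4, IGFBP5, IGFBP6 and IGFBP7, less of the receptor IGF1R and of IGFBP2, and more of IGFBP3. Of the 8 members that could be tested, 7 fell and 1, IGFBP3, rose in the mean of the ESC lines and in each line against fibroblasts. IGF1 reached the minimum level for testing only through the fibroblasts, so its fall was fixed by the filter. Over all tested loci, 43.1% were called in the comparison of the ESC mean with fibroblasts, 28.1% as higher and 14.9% as lower. The same share was 44.1% for ESC3 against fibroblasts, made up of 28.6% higher and 15.5% lower. For ESC7 it was 43.4% (29.2% and 14.3%), and for ESC11 42.9% (27.4% and 15.5%). The median log2 difference was -2.18 over the 8 members and 0.44 over all tested loci. The all-loci split of 5144 higher and 2730 lower became 3740 and 3430 with quantile normalization, 3511 and 3811 with median-ratio scaling, and 4176 and 3258 when libraries were scaled on loci of 1 kb or more. The members' directions against fibroblasts held under each of these. In bulk RNA, fewer cells of a type and less RNA per cell cannot be told apart.

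**Figure D1:**
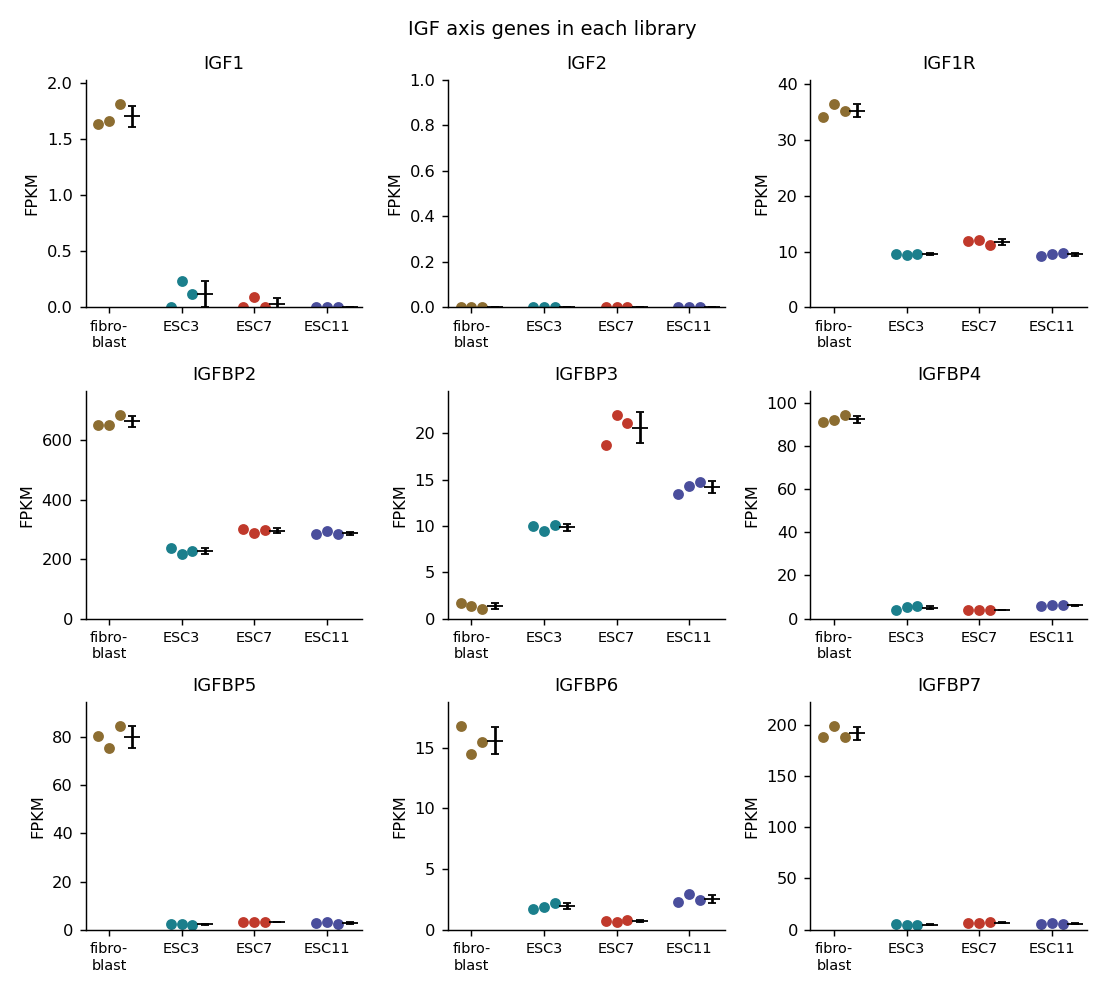
FPKM of the 9 genes (y axes, 1 scale per gene) in each of the 12 libraries, by group; points are libraries and bars the group mean with its SD. IGFBP3 is low in fibroblasts (1.05 to 1.74) and high in ESCs (9.45 to 22.0), while the other tested members are highest in fibroblasts and IGF2 is listed at 0 throughout.

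The ligands were low or listed at 0. IGF1, the growth hormone-responsive ligand (chromosome 5, 85700101 to 85778719, plus strand; all positions are Sscrofa10.2), was at 1.63, 1.66 and 1.81 FPKM in the fibroblast libraries. It was listed at 0 in 6 of the 9 ESC libraries, and the other ESC values were 0.234 and 0.116 in ESC3 and 0.0955 in ESC7. All fibroblast libraries were thus above all ESC libraries. The log2 difference was -1.37 ± 0.06 (SE, adjusted p = 3.96e-09 in limma). IGF1 passed the filter of an FPKM of at least 1 in 3 libraries only through the fibroblasts, so it could be tested only as a gene that is higher there, and with a pseudocount of 5 its difference was -0.41. IGF2, the fetal growth factor whose gene is imprinted in mammals, was listed at 0 in all 12 libraries. Its locus in the table spans 2416 bp and starts at base 1 of the unplaced scaffold GL896425.1. No test of IGF2 between parthenogenetic and IVF lines could therefore be made.

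IGF1R, the signalling receptor of both ligands (chromosome 1, 153514790 to 153855400, minus strand), was at 34.2, 36.4 and 35.1 FPKM in fibroblasts. It was at 9.62, 9.35 and 9.67 in ESC3, at 11.9, 12.1 and 11.2 in ESC7, and at 9.25, 9.55 and 9.80 in ESC11. Every ESC library kept a clear level, below every fibroblast library. The log2 difference of the ESC mean was -1.69 ± 0.03 (SE, adjusted p = 4.75e-12), and the ESC mean was 29.1% of the fibroblast mean. A further 2 IGF1R loci on unplaced scaffolds were at 0.302 FPKM or less in every library.

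IGFBP2 (scaffold JH118558.1, 45719 to 68437, minus strand), a binding protein abundant in the fetus, had the highest level of the family in every group. It was at 652, 652 and 683 FPKM in fibroblasts, at 236, 217 and 228 in ESC3, at 301, 288 and 298 in ESC7, and at 285, 293 and 283 in ESC11. The groups did not overlap between ESCs and fibroblasts. It fell by 1.30 ± 0.04 on the log2 scale (SE, adjusted p = 5.78e-11), and 40.8% of the fibroblast mean was left.

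IGFBP3, the main carrier of IGF in blood (chromosome 18, 54851504 to 54856012, plus strand), went the other way. It was at 1.74, 1.36 and 1.05 FPKM in fibroblasts, at 10.0, 9.45 and 10.1 in ESC3, at 18.7, 22.0 and 21.2 in ESC7, and at 13.5, 14.3 and 14.8 in ESC11. The 4 groups did not overlap, with fibroblasts lowest, then ESC3, ESC11 and ESC7. The ESC mean of 14.9 ± 4.78 (SD, n = 9) was 10.8-fold the fibroblast mean of 1.38 ± 0.344 (SD, n = 3). On the log2 scale the ESC mean was higher by 2.69 ± 0.08 (SE, adjusted p = 1.09e-10), by 2.20 in ESC3, 3.19 in ESC7 and 2.68 in ESC11. Over the alternative settings the difference of the ESC mean ran from 1.61 to 3.30. The rise in IGFBP3 was known when these genes were grouped, so it is described here and is not independent support for a pattern.

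Reads over IGFBP3 cannot be assigned to a strand, since strandedness was not stated. An unannotated locus on the minus strand that carries the same identifier (54849118 to 54855648) overlaps IGFBP3 by 4145 bp. It was listed at 0 in fibroblasts and was at 0.317, 0.272 and 0.396 FPKM in ESC3, at 0.768, 1.47 and 1.04 in ESC7, and at 0.599, 0.528 and 0.490 in ESC11. These values were far below those of IGFBP3 and had the same order of lines. IGFBP1, 5833 bp from IGFBP3 and known as an acutely regulated liver IGFBP, was listed at 0 in all 12 libraries. The nearest named neighbour that could be tested was ADCY1, an adenylyl cyclase 35072 bp away, which rose from a mean of 0.0433 to 1.39 FPKM (log2 difference 1.19). ADCY1 passed the filter only through ESCs, so no other direction could have been called.

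IGFBP4, a binding protein that withholds IGF until PAPPA cuts it (chromosome 12, 22275117 to 22290484, minus strand), was at 91.2, 92.0 and 94.4 FPKM in fibroblasts. It was at 4.13, 5.40 and 5.80 in ESC3, at 4.07, 3.77 and 4.13 in ESC7, and at 6.06, 6.10 and 6.53 in ESC11. No ESC library came near the fibroblasts, whose mean was 18.1-fold higher. The log2 difference was -3.96 ± 0.07 (SE, adjusted p = 2.78e-12).

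IGFBP5, a binding protein that also attaches to matrix (chromosome 15, 131680310 to 131684630, minus strand), was at 80.5, 75.4 and 84.4 FPKM in fibroblasts. It was at 2.29, 2.53 and 1.79 in ESC3, at 3.12, 3.16 and 3.19 in ESC7, and at 2.77, 3.18 and 2.56 in ESC11. The fibroblast mean was 29.3-fold the ESC mean, with a log2 difference of -4.45 ± 0.07 (SE, adjusted p = 1.10e-12). The table splits this gene over further loci. An unannotated locus named IGFBP5 (chromosome 15, 131632693 to 131634905) had a mean of 32.2 FPKM in fibroblasts and 1.06 in ESCs (log2 difference -4.07). A scaffold locus of that name, 10905 bp from IGFBP2 on JH118558.1, had 7.29 and 0.189 (-2.82). That locus passed the filter only through fibroblasts and could only have been called lower.

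IGFBP6, which prefers IGF2 over IGF1 (chromosome 5, 18767130 to 18772057, plus strand), was at 16.8, 14.5 and 15.5 FPKM in fibroblasts. It was at 1.69, 1.90 and 2.21 in ESC3, at 0.733, 0.657 and 0.790 in ESC7, and at 2.26, 2.94 and 2.46 in ESC11. The groups did not overlap, and the lowest were the ESC7 libraries. Against fibroblasts the log2 difference was -2.66 ± 0.07 (SE, adjusted p = 5.96e-11), and the fibroblast mean was 8.98-fold the ESC mean.

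IGFBP7, a low-affinity relative of the family found around vessels and in matrix (chromosome 8, 59064675 to 59139438, minus strand), was at 188, 198 and 188 FPKM in fibroblasts. It was at 5.18, 4.63 and 5.07 in ESC3, at 6.67, 6.64 and 7.54 in ESC7, and at 5.46, 6.26 and 5.60 in ESC11. It had the largest log2 difference of the members, -4.81 ± 0.05 (SE, adjusted p = 5.15e-14), and its fibroblast mean was 32.5-fold the ESC mean. IGFBP7 shares 4854 bp with POLR2B, an RNA polymerase II subunit gene on the opposite strand. POLR2B was at 28.5 to 29.2 FPKM in fibroblasts and 50.6 to 55.1 in ESCs, the opposite direction to IGFBP7. How many reads of the shared stretch fell to each gene was not tested.

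**Figure D2:**
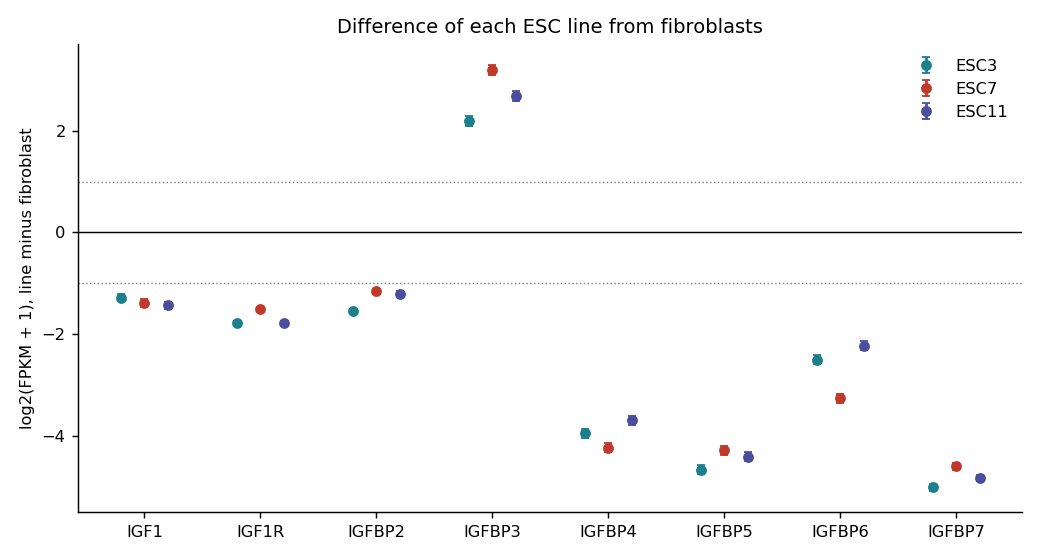
Log2(FPKM + 1) difference of each ESC line from fibroblasts (y axis) for the 8 tested members (x axis); points are limma estimates, bars their SE, and dotted lines the log2 difference of 1 used for calls. IGFBP3 lies between 2.20 and 3.19 in the 3 lines, and the other members all lie below -1.

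What was left of each member in ESCs can be set beside the fibroblast markers. The sum of the 10 fibroblast markers in ESCs was 0.516% of its fibroblast mean, and single markers ranged from 0.00996% to 3.51% (THY1). IGF1 (2.91%), IGFBP7 (3.08%) and IGFBP5 (3.41%) lay below THY1 but above the marker median of 0.260%. The placing differed by line: IGF1 was at 6.85% in ESC3, 1.87% in ESC7 and 0% in ESC11, and IGFBP5 in ESC7 (3.94%) was above THY1 there (3.84%). In the mean of the lines, IGFBP4 (5.52%), IGFBP6 (11.1%), IGF1R (29.1%) and IGFBP2 (40.8%) lay above every fibroblast marker. The part of residual fibroblast or feeder RNA in these levels was not tested.

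The mix of binding proteins differed as well. The summed FPKM of IGFBP2 to IGFBP7 was 1043 ± 19.8 in fibroblasts, 251 ± 9.50 in ESC3, 331 ± 5.94 in ESC7 and 319 ± 6.25 in ESC11 (SD, n = 3). IGFBP2 made up 63.5% ± 0.534 of the sum in fibroblasts and 89.9% ± 0.668 in the 9 ESC libraries. IGFBP7 held 18.3% in fibroblasts and 1.96% in ESCs, and IGFBP4 8.87% and 1.73%. IGFBP5, counted at 1 of its 3 loci, held 7.68% and 0.907%, and IGFBP6 1.50% and 0.597%. IGFBP3 went from 0.133% ± 0.0350 to 4.87% ± 1.09.

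Ranked by mean FPKM at the 1 locus taken per gene, the fibroblast order was IGFBP2, IGFBP7, IGFBP4, IGFBP5, IGF1R, IGFBP6, IGF1, IGFBP3 and IGF2. The place of IGFBP5 (80.1) after IGFBP4 (92.5) holds for that locus alone, as its further loci had means of 32.2 and 7.29. The ranges of IGF1 and IGFBP3 overlapped in fibroblasts, and the other neighbours above 0 did not. In each ESC line IGFBP3 came next after IGFBP2, and its range overlapped that of the next member, IGF1R, in ESC3 alone. With IGFBP2 left out, IGFBP3 made up 0.363% of the remaining sum in fibroblasts, 41.0% in ESC3, 58.1% in ESC7 and 45.0% in ESC11. That remaining sum was 380.8 FPKM in fibroblasts and 30.4 in ESCs. These shares are a description, with no test.

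**Figure D3:**
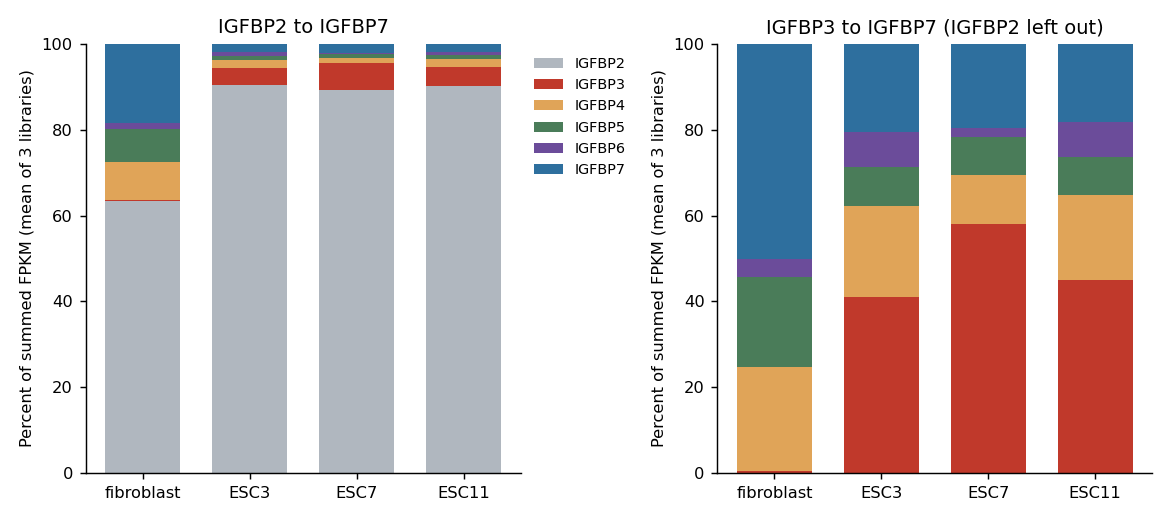
Mean percent of the summed FPKM (y axis, from 0) held by each binding protein in each group of 3 libraries, with IGFBP2 (left) and without it (right). IGFBP2 holds 63.5% in fibroblasts and 89.3% to 90.4% in the ESC lines; without it IGFBP3 holds 0.363% in fibroblasts and 41.0% to 58.1% in the lines.

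The parthenogenetic lines and the IVF line were then compared with each other. None of the 8 tested members differed between the mean of the parthenogenetic lines and ESC11 by a log2 difference of at least 1, where 2.2% of all loci were called. At an adjusted p under 0.05 and any size, 4 members differed, and 19.7% of all loci did so. IGFBP6 was lower in the parthenogenetic mean (-0.65, adjusted p = 2.67e-04), as was IGFBP4 (-0.39, adjusted p = 5.79e-03) and IGFBP2 (-0.15, adjusted p = 0.0211), and IGF1R was higher (0.14, adjusted p = 0.0217). The IGF1R difference turned to -0.30 when libraries were scaled on loci of 1 kb or more. The IGFBP3 difference was 0.01 ± 0.08 (SE, adjusted p = 0.956), a mean of a line below and a line above ESC11.

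Line by line, more members had an adjusted p under 0.05 in the comparisons with ESC7 than between ESC3 and ESC11, as did more of all loci. With scaling on loci of 1 kb or more, calls over all loci were instead most numerous in ESC3 minus ESC11 (1052). They numbered 993 in ESC7 minus ESC3 and 492 in ESC7 minus ESC11. IGFBP6 fell in ESC7 against ESC11 by 1.04 ± 0.09 on the log2 scale (SE, adjusted p = 2.04e-05), a 3.51-fold difference in mean FPKM, and no library of either line overlapped the other. This was the 1 member called between lines, where 2.94% of all loci were called, 0.799% as lower in ESC7. Without replicate 2 of ESC11 the difference was -0.96, under the size needed for a call, and with a pseudocount of 5 it was -0.40. At any size, 5 of the 8 tested members had an adjusted p under 0.05 between ESC7 and ESC11 (IGF1R, IGFBP3, IGFBP4, IGFBP6 and IGFBP7), as did 30.9% of all loci. The libraries of ESC7 and ESC11 did not overlap for any of these 5 members. The IGFBP7 difference of 0.23 turned to -0.02 when libraries were scaled on loci of 1 kb or more. No member was called between ESC3 and ESC11 (2.48% of all loci) or between ESC7 and ESC3 (3.38%). At any size, IGFBP2 (-0.34, adjusted p = 4.17e-04) and IGFBP3 differed between ESC3 and ESC11, beside 23% of all loci. With scaling on loci of 1 kb or more these became -1.01 and -1.10, and both were called.

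IGFBP3 was 2.09-fold higher in ESC7 than in ESC3, with a log2 difference of 0.99 ± 0.10 (SE, adjusted p = 3.02e-05) just under the size needed for a call. It passed that size without either of 2 ESC3 libraries or 1 ESC7 library (1.00, 1.01 and 1.06). With scaling on loci of 1 kb or more it became 1.33 and was called. GATA6, a primitive endoderm marker, had the same order of line means as IGFBP3, as did AFP at means of 0.0423 FPKM or less. The other markers of that list did not. APOA1 was at 3.97 in ESC3, 3.74 in ESC7 and 3.97 in ESC11. GATA4, SOX17 and HNF4A were lower in ESC7 than in ESC3, and TTR was listed at 0. The part of primitive endoderm cells in the IGFBP3 differences was not tested. ESC11 lay between the other lines in IGFBP3, below ESC7 (0.51, adjusted p = 3.32e-03) and above ESC3 (-0.49 for ESC3 minus ESC11, adjusted p = 5.74e-03).

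Smaller differences between ESC7 and ESC3 were found for most members. At any size, 7 of the 8 tested members, all but IGF1, had an adjusted p under 0.05 there, and 39.9% of all loci did. IGFBP7 (0.41), IGFBP5 (0.38), IGFBP2 (0.38) and IGF1R (0.27) were higher in ESC7, and IGFBP6 (-0.76) and IGFBP4 (-0.28) lower. The IGFBP4 difference turned to 0.02 when libraries were scaled on loci of 1 kb or more. ESC3 and ESC11 were closer in IGF1R, with a difference of 0.00 ± 0.04 (SE, adjusted p = 0.986). With scaling on loci of 1 kb or more that difference became -0.60 (adjusted p = 0.0193 in limma).

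**Figure D4:**
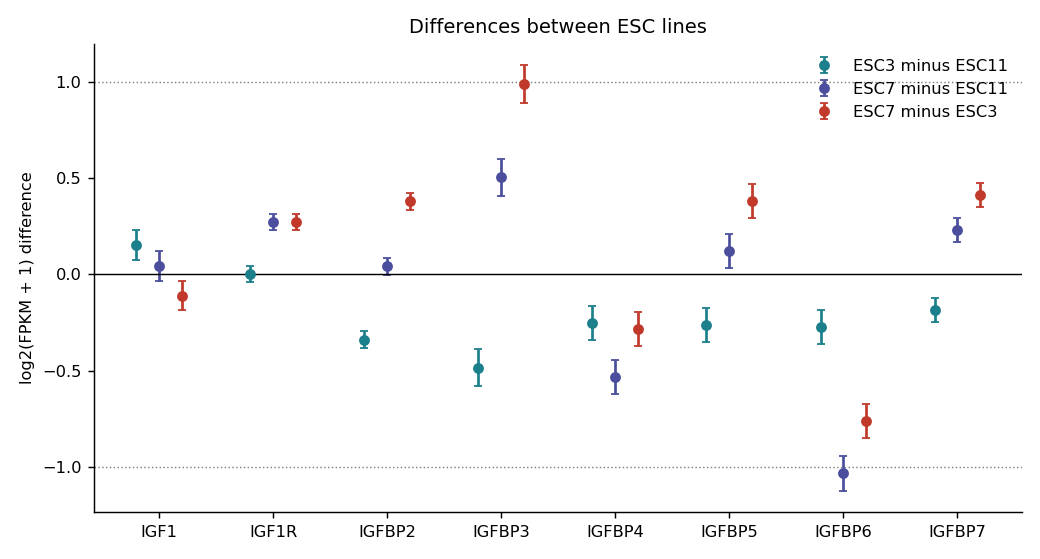
Log2(FPKM + 1) differences between ESC lines (y axis) for the 8 tested members (x axis); points are limma estimates, bars their SE, dotted lines a log2 difference of 1. IGFBP6 in ESC7 minus ESC11 (-1.04) is past the line, and IGFBP3 in ESC7 minus ESC3 (0.99) is just short of it.

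The other ligands, receptors and carriers were mostly low. IGF2R, the mannose 6-phosphate receptor that takes IGF2 up for breakdown, was at 45.0 to 53.7 FPKM in fibroblasts and 97.5 to 153 in ESCs (median 113). It rose by 1.24 (adjusted p = 5.69e-08), the only 1 of 3 tested genes of this list to do so, and the call was lost with median-ratio scaling (0.79) and with scaling on loci of 1 kb or more (0.99). INSR, the insulin receptor, had means of 2.01 and 4.20 (0.76), and IGFALS, which joins IGF and IGFBP3 in the blood complex, 0.596 and 1.71 (0.75), neither called in the ESC mean. Against fibroblasts INSR was called higher in ESC7, beside 29.2% of all loci, a call lost with quantile normalization and with a pseudocount of 5. IGFALS was called higher in the ESC mean with a pseudocount of 0.1. INS was listed at 0 in all 12 libraries, and INSRR did not pass the filter.

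Proteases that act on the binding proteins were high in fibroblasts. All 4 tested genes of the list of these proteases and their inhibitors fell, beside 14.9% of all loci. Their median log2 difference was -5.55, beside 0.44 over all loci. PAPPA, which cuts IGFBP4, was at 52.1 to 56.2 FPKM in fibroblasts and 0.299 to 0.692 in ESCs (-5.21). HTRA1 went from a mean of 240.4 to 3.13 (-5.89) and ADAM12 from 68.0 to 0.165 (-5.89). STC2, an inhibitor of PAPPA, had means of 17.2 and 6.28 (-1.33), a difference of -0.98 with a pseudocount of 5. PAPPA2 and STC1 did not pass the filter. PAPPA and ADAM12, like IGF1, passed it only through the fibroblasts, so they could not have been called higher in ESCs.

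Of 9 proteins with an IGFBP-type domain outside the family, 6 fell and 1 rose (median -2.31), beside 14.9% and 28.1% of all loci. With a pseudocount of 5 the count was 5 lower and 0 higher, as WISP2 (-0.44) and IGFBPL1 (0.96) lost their calls. WISP1 fell from 52.9 to 0.512 FPKM (-5.17), ESM1 from 8.08 to 0.0746 (-3.08) and CTGF from 237 to 29.1 (-2.99). CTGF and CYR61, which had means of 235 and 47.4 (-2.31), are matrix-associated targets of YAP signalling. IGFBPL1 was listed at 0 in fibroblasts and was at 2.46 to 6.30 in ESCs (median 5.57), a log2 difference of 2.49. Of the called genes, WISP1, WISP2 and ESM1 passed the filter only through fibroblasts and IGFBPL1 only through ESCs, so their directions were fixed.

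**Figure D5:**
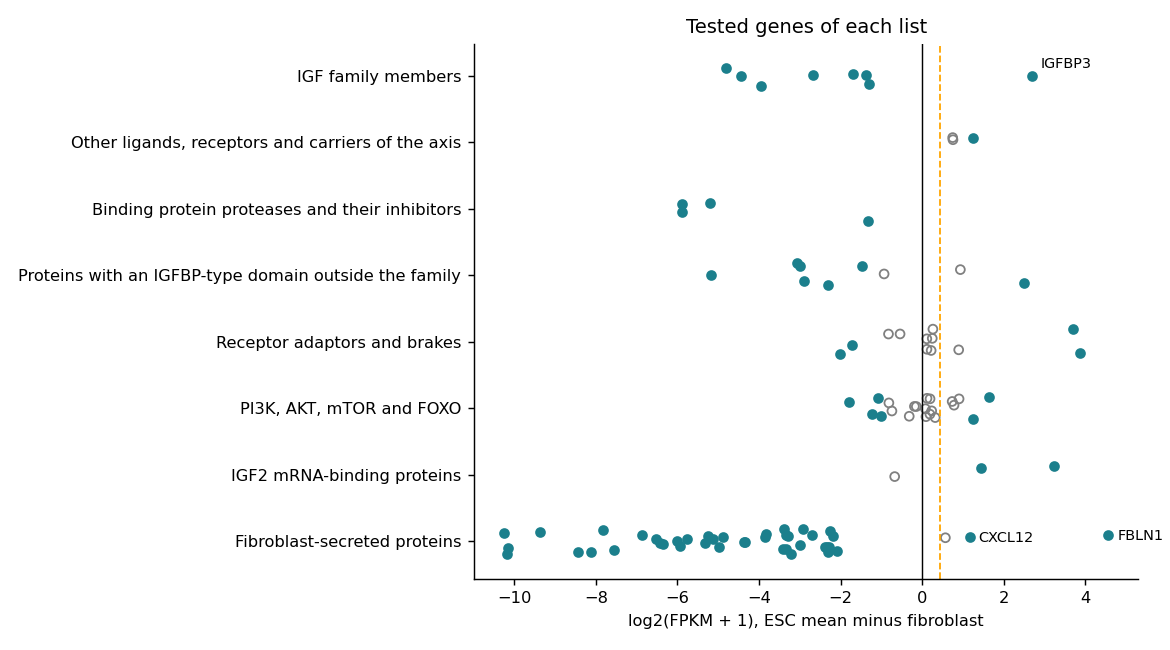
Log2(FPKM + 1) difference of the ESC mean from fibroblasts (x axis) for the tested genes of the IGF family and of 7 related lists (rows); filled points were called, open points were not, and the dashed line is the median of all tested loci (0.44). All 4 tested genes of the protease and inhibitor list and 40 of 43 fibroblast-secreted genes lie to the left as called points. PAPPA, ADAM12 and some fibroblast-secreted genes passed the filter only through fibroblasts and could not have been called higher in ESCs. The adaptor and PI3K lists have medians of 0.17 and 0.10, with called points on both sides. Over all tested loci, 14.9% were called lower.

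Inside the cell, 2 of 12 tested adaptors and brakes rose, 2 fell and 8 were not called, beside 28.1% of all loci higher and 14.9% lower, with a median of 0.17 that became -0.25 with median-ratio scaling. IRS4, a substrate of the receptors, was listed at 0 in fibroblasts and was at 8.24 to 18.3 FPKM in ESCs. GRB14, which restrains insulin receptor signalling, was listed at 0 in 2 fibroblast libraries and at 0.871 in the other, and was at 11.2 to 24.2 in ESCs (3.88). Both passed the filter only through ESCs and could only have been called higher. GRB10, a relative of GRB14, fell from 53.4 to 15.4 (-1.73), as did the docking protein GAB1 from 18.8 to 3.95 (-2.01). IRS1, the classic substrate, had means of 7.91 and 9.44 (0.22, adjusted p = 3.14e-03), not a call.

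In the PI3K, AKT, mTOR and FOXO list, 2 of 21 tested genes rose, 4 fell and 15 were not called (median 0.10, and -0.35 with median-ratio scaling). Over all loci, 28.1% were higher and 14.9% lower. FOXO1, a transcription factor that AKT keeps out of the nucleus, rose from 10.7 to 35.7 FPKM (1.64). The translation brake EIF4EBP1 fell from 139.9 to 40.0 (-1.79). The kinase subunit PIK3CB had means of 5.05 and 13.3 (1.24), a call that was lost with quantile normalization (0.95), median-ratio scaling (0.84) and a pseudocount of 5 (0.87).

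Of the IGF2 mRNA-binding proteins, IGF2BP1 rose from 9.08 to 95.7 FPKM (3.24, adjusted p = 4.71e-13) and IGF2BP3 from 12.8 to 36.5 (1.44, adjusted p = 4.70e-09). IGF2BP2 had means of 46.9 and 29.2 (-0.67), and its difference of -1.12 with median-ratio scaling was called. These proteins are named for a target, IGF2, that was listed at 0 here.

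The direction of IGFBP3 was set beside 45 other genes of proteins that fibroblasts secrete, such as collagens. Of the 43 that could be tested, 40 fell, 2 rose and 1 (SFRP1, 0.57) was not called, with a median of -4.35. Over all tested loci, 14.9% were lower and 28.1% higher, with a median of 0.44. CTGF and CYR61 are also in the list of IGFBP-domain proteins, and COL1A1, COL1A2, COL3A1, DCN and LUM are also among the fibroblast markers. Some of these genes, COL3A1 among them, passed the filter only through fibroblasts. Among the largest falls were those of COL3A1 (-10.25), COL1A2 (-10.15) and TNC (-9.36). The genes that rose were FBLN1, a matrix glycoprotein, from 0.714 to 39.6 FPKM (4.56), and CXCL12, a chemokine, from 1.79 to 5.67 (1.16). FBLN1 passed the filter only through ESCs. The CXCL12 call was lost with a pseudocount of 5 (0.62), quantile normalization (0.80), median-ratio scaling (0.84) and scaling on loci of 1 kb or more (just under 1). IGFBP3, FBLN1 and CXCL12 were higher in all 9 ESC libraries than in any fibroblast library, as was SFRP1, which was not called. The share of all loci without overlap was not computed, so non-overlap is only a description, here and for the members. Among these genes CXCL12 (1.25), SPARC (1.15) and COL5A2 (1.04) were called higher in ESC7 than in ESC3 (2.34% of all loci), as was PIK3R2 (1.10) of the PI3K list.

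The genes with the most similar pattern were found by the root-mean-square (RMS) difference of mean-centred log2(FPKM + 1) values over the 12 libraries. For IGFBP3 the nearest was FLT1, a VEGF receptor, at an RMS of 0.0918, with mean FPKM of 3.40 in fibroblasts, 19.4 in ESC3, 38.9 in ESC7 and 25.6 in ESC11. MYBPC2 (0.135) and SFXN5 (0.139) came next. For IGFBP7 it was the THY1 locus listed as CD90 (RMS 0.110), with 206.8 FPKM in fibroblasts and 6.21 to 7.95 in the lines, then LMNA and SEMA3C. For IGFBP5 these were PLA2G4A (0.100), SQRDL and GPR177, and for IGFBP4 CDK6 (0.155), EPS8 and MSRB3. For IGFBP6 they were NGEF (0.205), PTN and CYR61. PPFIBP1 (0.0595), TNIP1 and FUCA1 were nearest to IGFBP2, PHF2 (0.0581), TAX1BP3 and FKBP9 to IGF1R, and SEPN1 (0.0646), UBE2D4 and RAB6IP2 to IGF1. These matches describe levels over 12 libraries that share their groups. Since the log2(FPKM + 1) scale understates the change of low genes, a near match need not have a like fold change. SEPN1 had 161.6 FPKM in fibroblasts and 59.1 to 66.2 in the lines, while IGF1 had 1.70 and a mean of 0.0495 in ESCs. MYBPC2 had 0.0267 in fibroblasts and 3.49 to 7.45 in the lines, while IGFBP3 was 10.8-fold higher in ESCs.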

How the data were processed

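PolyA RNA was sequenced (TruSeq kit, 100 bp, paired) in 12 libraries, per the labels' protocols. The values are FPKM computed by the authors, deposited as 1 table of 30012 loci. Per the submitters' processing notes, the tools were Cufflinks 2.1.1 and STAR 2.4.0b and the build was Sscrofa10.2, with no role given. Depth, strandedness and the handling of multiply mapped reads are not given in the sources used here. All 12 value columns matched a labelled sample.

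IGF1 was found through its description, since the table names it IGFI. Values were used as log2(FPKM + 1), on the 18278 loci that reached an FPKM of 1 in 3 or more libraries. A single limma 3.58.1 model (R 4.3.3) took all 4 group means, with a variance trend, two-sided contrasts and Benjamini-Hochberg adjustment over all tested loci, for 8 comparisons that share samples. A call needed an adjusted p under 0.05 and a log2 difference of 1 or more in size. Errors beside FPKM are SDs, and those beside differences SEs. The model was tested on simulated data.

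The members and the gene lists (112 genes, 109 found) were chosen with earlier results of these data known. Named genes were all members, up to 4 called genes of each list with the largest difference from fibroblasts, some genes always named, fibroblast-secreted genes called higher in ESCs, and the 3 nearest patterns per member. Some genes that fall under this rule are not reported here. Genes named for a lost or missed call, for a filter, or for a difference between lines were chosen after their values were seen. AKT1, IRS2, FSTL1, T, SOX1 and CDH5 were not matched and are not analysed here. Alternatives were pseudocounts of 0.1 and 5, no filter and a filter of FPKM 5, quantile normalization, median-ratio scaling, no variance trend, a replicate block, summed loci, and leaving out each library. Scaling on loci of 1 kb or more was chosen after seeing the data. Summaries used Python 3.11.15 with pandas 2.3.3 and numpy 2.4.6, and figures matplotlib 3.10.9.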

Additional observations from a re-analysis of the deposited data

Results flagged for a closer look

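IGFBP6 differed between the ESC lines: ESC7 minus ESC11 gave a log2 difference of -1.04, tested as a contrast in limma (adjusted p = 2.04e-05), with all 3 ESC7 libraries below all 3 ESC11 libraries. The libraries of these lines did not overlap for IGF1R, IGFBP3, IGFBP4 and IGFBP7 either. The share of all loci without such overlap was not computed.

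The unannotated minus-strand locus that overlaps IGFBP3 and lies outside the comparisons had a mean of 0.654 FPKM in the 9 ESC libraries and was listed at 0 in the 3 fibroblast libraries.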

How the results depend on the processing

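Against fibroblasts, 684 of 688 alternative values kept their direction and their call, and 0 turned. The 4 that lost the call were those of IGF1 with a pseudocount of 5 (-0.41, and -0.39, -0.41 and -0.42 for ESC3, ESC7 and ESC11). A filter of FPKM 5, or leaving out any fibroblast library, left IGF1 untested.

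Between lines, counts of called members were small and moved. For the parthenogenetic mean minus ESC11 the count of 0 became 1 with a pseudocount of 0.1. For ESC7 minus ESC3 the count of 0 became 2 with a pseudocount of 0.1, 1 with loci of a symbol summed and 1 with scaling on loci of 1 kb or more, and ran from 0 to 1 when single libraries were left out (1 without ESC3 replicate 1, ESC3 replicate 3 or ESC7 replicate 1). For ESC7 minus ESC11 the count of 1 became 0 with a pseudocount of 5, and ran from 0 to 1 when single libraries were left out (0 without ESC11 replicate 2). For ESC3 minus ESC11 the count of 0 became 2 (IGFBP2 -1.01, IGFBP3 -1.10) with scaling on loci of 1 kb or more. The cause was not tested.

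Some differences between lines, none of them called, changed sign. Of those that turned, IGF1R (0.14) in the parthenogenetic mean minus ESC11, IGFBP7 (0.23) in ESC7 minus ESC11 and IGFBP4 (-0.28) in ESC7 minus ESC3 had an adjusted p under 0.05 in the reported comparison, and turned with scaling on loci of 1 kb or more. With quantile normalization the differences that turned were IGFBP3 (-0.026) and IGFBP7 (-0.018) in the parthenogenetic mean minus ESC11, IGF1R (-0.0055) in ESC3 minus ESC11 and IGFBP2 (-0.15) in ESC7 minus ESC11, and with median-ratio scaling the same 4 (-0.030, -0.013, -0.029 and -0.0084). With scaling on loci of 1 kb or more they were IGF1R (-0.30), IGFBP3 (-0.44) and IGFBP7 (-0.38) in the parthenogenetic mean minus ESC11, IGF1R (-0.60) in ESC3 minus ESC11, IGFBP2 (-0.25), IGFBP5 (-0.10) and IGFBP7 (-0.025) in ESC7 minus ESC11, and IGFBP4 (0.024) in ESC7 minus ESC3. When single libraries were left out, IGF1R in ESC3 minus ESC11 ran from -0.017 to 0.021, and in the parthenogenetic mean minus ESC11 IGFBP3 ran from -0.025 to 0.042 and IGFBP7 from -0.0095 to 0.075. In fibroblasts the IGFBP2 share was 61.2% with loci summed and 61.7% with quantile normalization, and the IGFBP3 share 0.174% with quantile normalization.

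Replicate numbers did not pair the samples: same-numbered libraries of different groups had correlations of -0.0900 to 0.0867 in their deviations from the group means. With the number as a replicate block the counts of called members stayed at 8 in each comparison with fibroblasts, at 1 in ESC7 minus ESC11 and at 0 in the other line comparisons. Without read counts, what depth limits at the low levels of IGF1 and IGFBP6 is unknown.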
